A study of Mus musculus with 14 samples.

Results

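Lbp, which encodes lipopolysaccharide binding protein, rose in mouse lung 1 month after instillation of a carbonized carbon fibre, by 0.64 ± 0.17 on the log2 scale (limma's standard error, adjusted p = 0.0439). The call was a narrow one: 9 of 24 other ways of processing the data kept it, among them 3 of the 14 that left out 1 array. Of the 10 acute phase genes examined, none of the others passed the test in any of 6 comparisons. For that fibre against control 5.99% of all genes passed, and 3.78% of all genes rose. The 1 call is therefore no result about the 10 genes as a group. The genes were Saa1, Saa2, Saa3, Lcn2, Hp, Orm1, Lrg1, Lbp, Chi3l1 and Pigr, taken as the probes whose RefSeq accession belongs to those symbols. All 10 had a probe that entered the analysis, out of 30579 genes in all, 17290 of them with a symbol. Chi3l1 is listed under its other symbol, Chil1, in the annotation used for the names.

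Lungs came from male C57BL/6N mice, whose age is not given in the labels, and total RNA of the whole lung was hybridised to 14 one-colour microarrays. All 4 groups were sampled at 1 month. The 5 control mice received phosphate-buffered saline into the trachea, and 3 mice per group received 200 µg of a carbon fibre: the fibre before recycling (VCF), after carbonization (CCF), or after firing (RCF). The comparison asks how each state of the recycled material changes gene expression in the lung. The submitters describe the samples as biologically independent, and there was 1 dose and 1 time, so that neither a dose series nor an early peak was sampled.

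The acute phase response is the change in plasma proteins that follows injury or infection. Interleukin 6, interleukin 1 and tumour necrosis factor, acting through STAT3, NF-κB and the C/EBP factors, switch on these genes in the liver, and part of the set is also made locally. In the lung, airway and alveolar epithelium, macrophages and fat cells can express serum amyloid A, lipocalin 2, haptoglobin and orosomucoid, and pulmonary serum amyloid A is a known readout of inhaled particles.

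Each value below is log2 of the processed signal minus the 75th percentile of its array, so that 0 is that percentile and 1 unit is a doubling. Levels of different genes come from different probes, so that only values of the same gene are compared. The adjusted p is Benjamini-Hochberg over all genes of a comparison, from limma on all arrays, and 0.05 was the threshold. Arrays lay on 3 slides. Slide 3 held only control 4, control 5, RCF 2 and RCF 3, so that RCF 1, on slide 1, was the only RCF array beside VCF or CCF arrays. For RCF 2 and RCF 3, slide and fibre cannot be told apart in comparisons with the other fibres. VCF 1, CCF 2 and RCF 1 were dim, with a 75th percentile of 277 to 375 intensity units against 891 to 2953 on the others, and they are marked as squares in the plots. All 10 alveolar type 2 cell markers, all 10 endothelial markers and all 11 alveolar macrophage markers with a probe were above background on every array. This accords with the tissue label, but 9 of 10 adipocyte and 4 of 10 hepatocyte markers were also above background on every array. Detection alone therefore does little to identify the tissue. In whole tissue, fewer cells of a type and less RNA per cell cannot be told apart.

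The serum amyloid A genes and Lcn2 are shown first by the 250 bases before their transcript starts, because Saa1 and Saa2 are near copies of each other and C/EBP and NF-κB are known to drive this class of gene. Sequences are RefSeq's, on GRCm38.p6, written 5′ to 3′ on the gene's strand. RefSeq windows were at hand for 7 of the 10 genes, and these 4 are printed. Capitals mark matches to a C/EBP element (TTNNGNAA on either strand) or to a kappa B element (3 G, any 5 bases and 2 C, on either strand), which do not overlap each other here. Saa1 lies at chr7:46742981-46743230 on the minus strand, Saa2 at chr7:46751583-46751832 on the plus strand, Saa3 at chr7:46715677-46715926 on the minus strand and Lcn2 at chr2:32387740-32387989 on the minus strand.
Saa1: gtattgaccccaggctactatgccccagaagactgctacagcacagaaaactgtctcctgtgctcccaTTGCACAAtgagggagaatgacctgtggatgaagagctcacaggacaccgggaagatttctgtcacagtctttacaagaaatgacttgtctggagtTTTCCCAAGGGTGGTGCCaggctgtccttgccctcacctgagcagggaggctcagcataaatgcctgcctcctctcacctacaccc
Saa2: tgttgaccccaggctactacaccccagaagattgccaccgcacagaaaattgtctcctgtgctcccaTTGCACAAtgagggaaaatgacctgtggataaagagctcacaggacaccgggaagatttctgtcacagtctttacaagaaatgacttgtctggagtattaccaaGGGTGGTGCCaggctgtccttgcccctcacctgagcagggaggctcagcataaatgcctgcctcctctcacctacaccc
Saa3: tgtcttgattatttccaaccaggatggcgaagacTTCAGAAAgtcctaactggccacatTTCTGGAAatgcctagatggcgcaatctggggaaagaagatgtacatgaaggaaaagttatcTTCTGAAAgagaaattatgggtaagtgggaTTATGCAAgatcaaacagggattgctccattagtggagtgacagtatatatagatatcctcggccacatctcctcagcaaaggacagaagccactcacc
Lcn2: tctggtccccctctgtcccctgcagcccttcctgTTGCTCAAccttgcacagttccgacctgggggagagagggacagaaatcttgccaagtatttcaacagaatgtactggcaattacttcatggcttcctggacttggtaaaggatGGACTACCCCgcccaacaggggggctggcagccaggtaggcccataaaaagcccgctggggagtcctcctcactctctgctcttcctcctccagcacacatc

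The Saa1 and Saa2 windows were identical in 238 of 251 aligned columns (94.8%), while Saa1 and Saa3 matched in 52.5%. Saa1 and Saa2 shared TTGCACAA and GGGTGGTGCC, and the second C/EBP match of Saa1, TTTCCCAA, is not among the matches of Saa2. Saa3 had 4 C/EBP matches and Lcn2 had 1 match to each motif. Over the 7 windows, 5 held a C/EBP match, 6 a kappa B match and 0 a STAT element (TTCNNNGAA). Among 32851 windows of the same length, 36.8% held the C/EBP letters, 45.8% the kappa B letters and 7.02% the STAT letters. These are letter matches only. RefSeq gives the Saa1 and Saa3 genes as a whole a longer span, which the Saa1 window reaches into and the Saa3 window lies within.

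**Figure D1:**
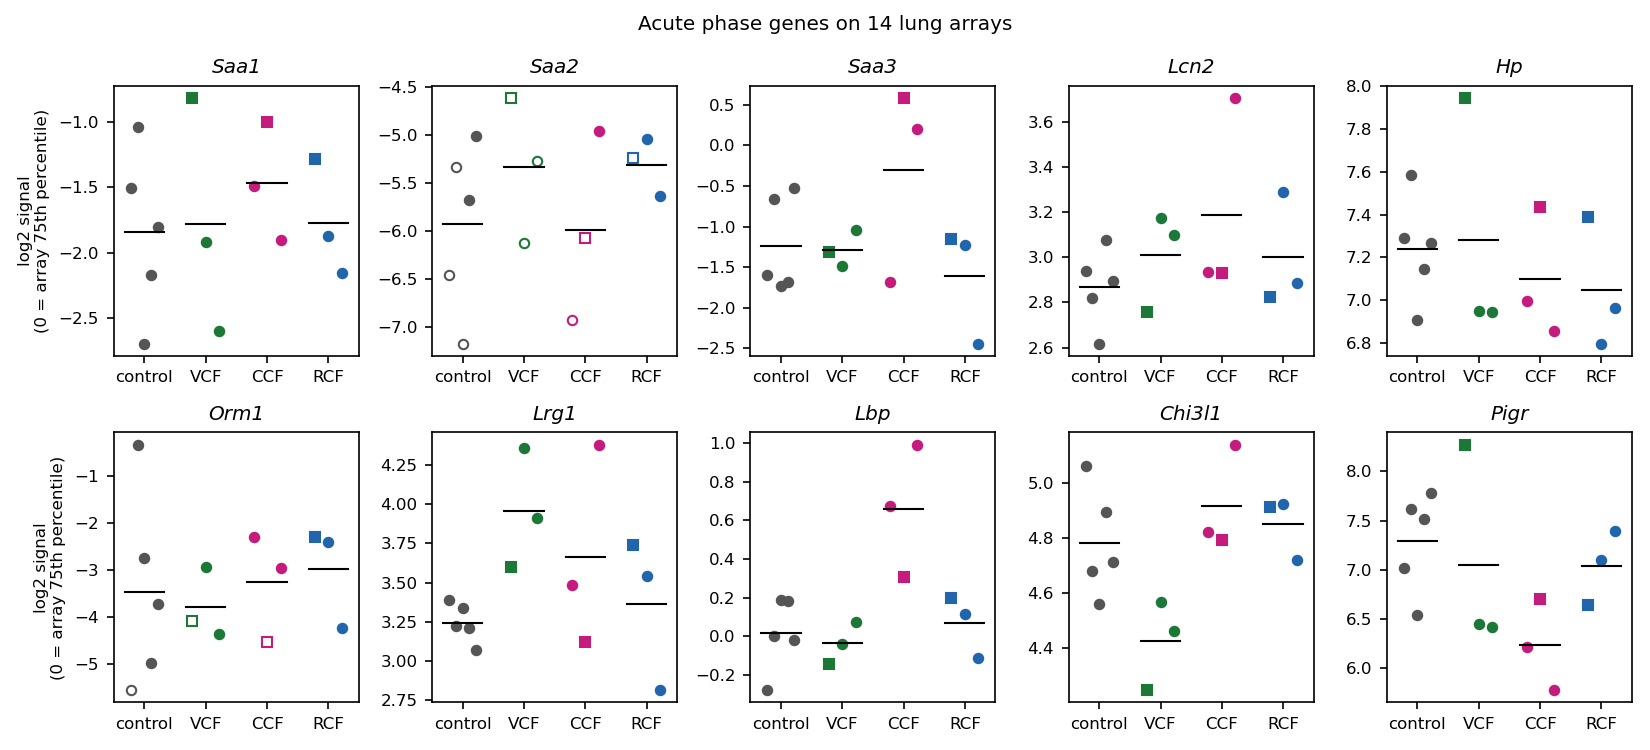
Each panel plots 1 acute phase gene, with log2 signal relative to the array's 75th percentile on the y axis and the 4 groups on the x axis. Points are arrays, squares are the 3 dim arrays, open symbols are arrays on which the probe was not above background, and black lines are group means. The CCF points of Lbp, from 0.31 to 0.99, lie above every other point of that panel, while in most other panels the groups overlap.

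Of the 10 genes, 0 passed the threshold in VCF against control, where 0.085% of all genes did, and 2 had an unadjusted p under 0.05 (9.96% of all genes). In CCF 1 gene passed, Lbp, against 5.99% of all genes in either direction and 3.78% that rose, and 2 had an unadjusted p under 0.05 (23.7% of all genes). In RCF 0 passed, against 0.154% of all genes, and 0 had an unadjusted p under 0.05 (12.9% of all genes) or groups that did not overlap (11.4% of all genes). These shares are near those of all genes and are no result about the genes as a group. Without Saa2, which was mostly below background, the median difference of the other 9 genes was −0.04 in VCF, 0.32 in CCF and 0.07 in RCF, against −0.00, −0.00 and 0.06 over all genes. In CCF 7 of these 9 lay above 0. With Saa2 the CCF median was 0.26, and 7 of 10 lay above 0. Orm1, 1 of the 7, kept its sign in CCF in 16 of the 23 other ways of processing that measured it.

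Saa1 and Saa2 encode the circulating forms of serum amyloid A, an apolipoprotein of high-density lipoprotein that attracts leukocytes. Saa1 was at −1.50, −1.04, −2.69, −2.17 and −1.80 in control 1 to 5. The VCF arrays read −0.82, −1.92 and −2.59, the CCF arrays −1.49, −1.0 and −1.90 and the RCF arrays −1.29, −1.87 and −2.15. All groups overlapped, and the dim array was the highest of its group in VCF, CCF and RCF. The means, −1.47 in CCF, −1.77 in RCF, −1.78 in VCF and −1.84 in control, did not differ beyond their spread. Saa1 in CCF was 0.38 ± 0.43 above control (adjusted p = 0.667), with a 95% confidence interval from −0.57 to 1.32. The intervals for Saa1 ran from −0.88 to 1.01 in VCF and from −0.88 to 1.02 in RCF.

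Saa2 was close to background. Its probe was above background on 2 of 5 control arrays, 0 of 3 VCF arrays, 1 of 3 CCF arrays and 2 of 3 RCF arrays, with values from −7.17 to −4.61 over all arrays, so that no fold is given. The Saa1 and Saa2 transcripts are near copies, and whether the Saa1 probe also binds Saa2 RNA was not tested.

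Saa3 is the form made by macrophages, epithelium and fat cells rather than liver. It was at −1.60, −0.66, −1.73, −1.69 and −0.52 in control 1 to 5 and at −1.31, −1.48 and −1.05 in VCF. In CCF it was at −1.68, 0.58 and 0.21, and in RCF at −1.15, −1.22 and −2.44. CCF 2 and CCF 3 were the highest of all 14 arrays for Saa3, while CCF 1 lay near the lowest controls, so that the groups overlapped. The difference from control was 0.94 ± 0.51 in CCF (adjusted p = 0.291), −0.04 ± 0.51 in VCF (adjusted p = 0.994) and −0.37 ± 0.51 in RCF (adjusted p = 0.845). Within slides the CCF difference for Saa3 was 0.58 on slide 1 (2 arrays against 2) and 1.94 on slide 2 (1 against 1). RCF stood 1.31 below CCF (adjusted p = 0.522), the widest gap among the fibres for any of the 10 genes. On slide 1, the only slide with both fibres, RCF against CCF was −0.60 for Saa3 (1 array, a dim one, against 2).

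Lbp hands bacterial lipopolysaccharide to CD14 and thereby to the receptor TLR4. Lbp was at −0.28, −0.00, 0.19, 0.18 and −0.02 in control 1 to 5. The VCF arrays read −0.14, −0.04 and 0.07, the CCF arrays 0.67, 0.31 and 0.99 and the RCF arrays 0.20, 0.12 and −0.11. All 3 CCF arrays lay above all 11 others, and VCF, RCF and control overlapped. Groups did not overlap in CCF against control for 16.3% of all genes. The order of means was CCF 0.66 ± 0.34 (SD, n = 3), RCF 0.07 ± 0.16 (n = 3), control 0.02 ± 0.19 (n = 5) and VCF −0.04 ± 0.11 (n = 3), where CCF did not overlap RCF, its neighbour, and the other neighbours overlapped. The rise in CCF was 1.56-fold, with a 95% confidence interval on the log2 scale from 0.28 to 1.01 (adjusted p = 0.0439 from limma). It was higher than the control mean in 3 of 3 CCF arrays, and it was 0.63 on slide 1 and 0.80 on slide 2. In VCF and RCF the Lbp differences were −0.05 ± 0.17 (adjusted p = 0.97) and 0.05 ± 0.17 (adjusted p = 0.951).

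The adjusted p of Lbp in CCF lay close to the threshold and ranged from 0.0218 to 0.164 over the 24 alternatives. Leaving out 1 array kept it only without control 3, VCF 1 or RCF 1. Without control 1, 2, 4 or 5 the adjusted p was 0.0856, 0.0509, 0.0757 and 0.0863, and the difference was 0.57 to 0.69. Without CCF 1, 2 or 3 it was 0.119, 0.0542 and 0.144, at a difference of 0.64, 0.82 and 0.48. Without VCF 2, VCF 3, RCF 2 or RCF 3 it was 0.06, 0.0559, 0.0678 and 0.0562 at an Lbp difference of 0.64. The summed level of 7 markers of hepatocytes, the cells that make most circulating Lbp, was 1.45 to 2.75 in CCF and 1.18 to 2.01 in control on the log2 scale. In CCF 0 of the 7 passed, where 5.99% of all genes did. The sum was 1.89 to 3.81 in RCF. The part of liver RNA in the Lbp values was not tested.

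**Figure D2:**
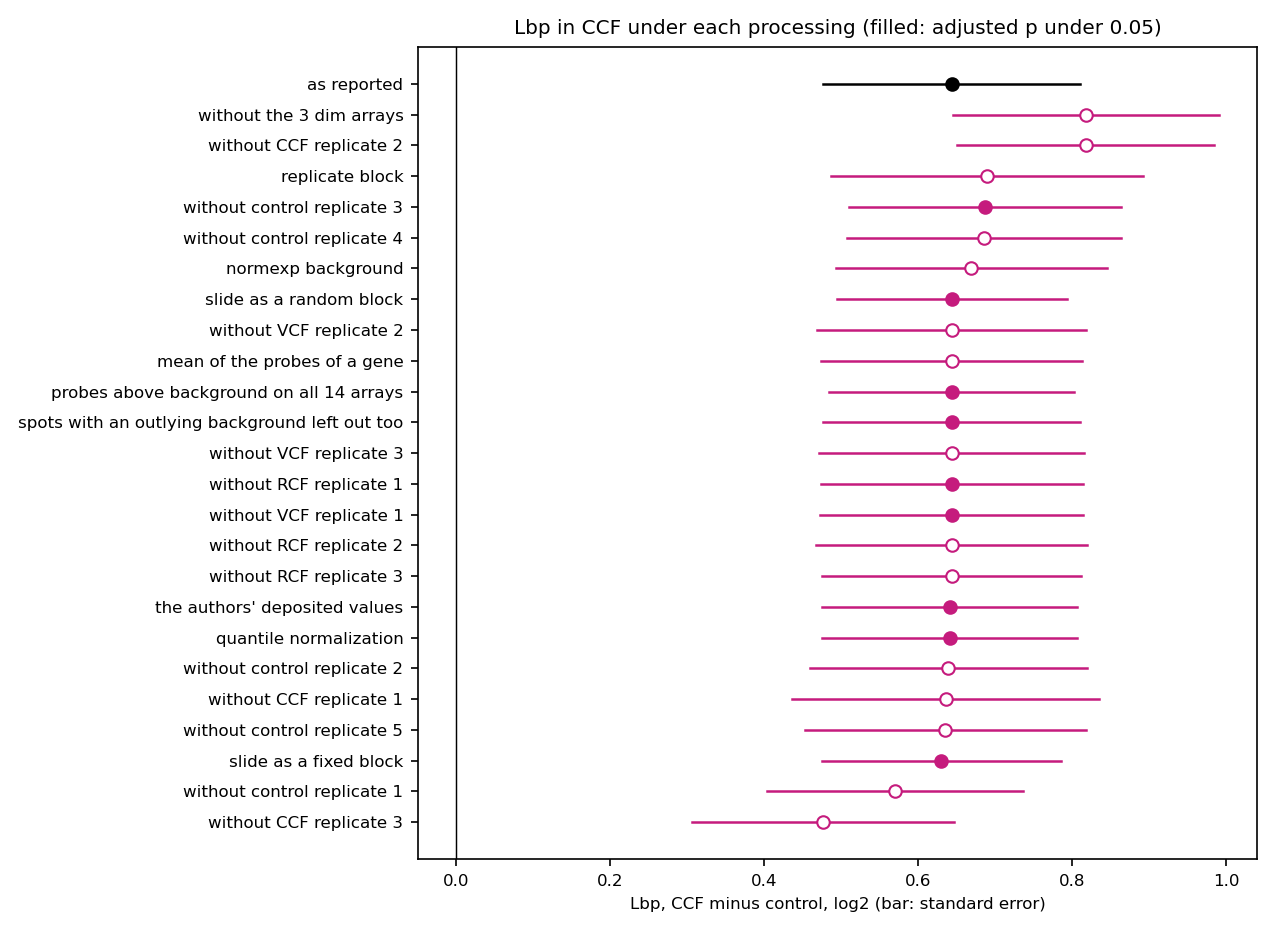
Lbp in CCF minus control on the x axis (log2), with 1 line for each way of processing and bars of 1 standard error. Filled points have an adjusted p under 0.05. The estimate stays between 0.48 and 0.82 throughout, and 9 of the 24 alternatives are filled.

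Lcn2, or lipocalin 2, sequesters bacterial siderophores and is stored in neutrophil granules as well as made by epithelium. Lcn2 was at 2.94, 2.82, 2.62, 3.08 and 2.89 in control 1 to 5. The VCF arrays read 2.76, 3.17 and 3.1, the CCF arrays 2.93, 2.93 and 3.70 and the RCF arrays 2.82, 3.29 and 2.89. One array, CCF 3, was far above the rest, and the dim array was the lowest of each fibre group. The means ran from 3.19 in CCF over 3.01 in VCF and 3.00 in RCF to 2.87 in control, and no neighbours differed beyond their spread. The largest Lcn2 difference from control was 0.32 ± 0.20 in CCF (adjusted p = 0.372), which was 0.05 on slide 1 and 1.09 on slide 2. A second Lcn2 probe, also above background on all 14 arrays, had group means of −0.02 in control, 0.07 in VCF, 0.40 in CCF and 0.39 in RCF. On that probe CCF 1 was the lowest CCF array (0.10), and the dim RCF 1 was the highest RCF array (0.54).

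The Lcn2 levels can be read beside the neutrophil markers. The summed level of 18 neutrophil markers was 8.21 to 8.74 in VCF, 6.98 to 7.35 in CCF, 7.42 to 8.09 in RCF and 7.55 to 8.0 in control on the log2 scale. In CCF 6 of the 18 fell, as 2.21% of all genes did, 12 of the 18 lay below 0 and 6 above, and the median difference of all 18 was −0.76, while the Lcn2 difference there was above 0 with an interval from −0.12 to 0.76. In VCF 1 of the 18 rose, where 0.085% of all genes passed in either direction. The median over all 18 was 1.00 in VCF, and Lcn2 differed there by 0.14 ± 0.20 (adjusted p = 0.911). Among the markers that fell in CCF were S100a8 and S100a9, subunits of the neutrophil protein calprotectin, by 1.85 ± 0.36 (adjusted p = 0.0174) and 1.68 ± 0.29 (adjusted p = 0.0134) in limma. Both missed the threshold when CCF 2 was left out (adjusted p = 0.0803 and 0.0597).

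Hp encodes haptoglobin, which captures free haemoglobin. Hp was at 7.29, 7.58, 6.90, 7.14 and 7.27 in control 1 to 5, at 7.94, 6.95 and 6.94 in VCF, at 7.0, 7.44 and 6.86 in CCF and at 7.39, 6.80 and 6.96 in RCF. The dim array was again the highest of its group in VCF, CCF and RCF, and all groups overlapped. The Hp means were 7.28 in VCF, 7.24 in control, 7.10 in CCF and 7.05 in RCF, each within the spread of the next. The differences were 0.04, −0.14 and −0.19 with a standard error of 0.25 each (adjusted p = 0.985, 0.804 and 0.838 in VCF, CCF and RCF from limma). The intervals for Hp reached from −0.52 to 0.60 in VCF and from −0.75 to 0.37 in RCF.

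Orm1, or orosomucoid 1, is a carrier of drugs and lipids made by liver and fat. Orm1 was at −5.55, −0.34, −2.74, −4.98 and −3.71 in control 1 to 5. The VCF arrays read −4.08, −2.93 and −4.35, the CCF arrays −2.29, −4.53 and −2.95 and the RCF arrays −2.31, −2.40 and −4.23. The probe was above background on 11 of 14 arrays, and control 2 stood highest. The control SD was 2.06, and all comparisons had intervals wider than 4 units. Control 2 also had the highest summed level of 10 adipocyte markers, 8.41 on the log2 scale, against 3.70 to 5.53 on the other controls. VCF 2 and CCF 1, the highest Orm1 arrays of their groups, had adipocyte sums of 7.37 and 6.4, again the highest of those groups, while in RCF the highest Orm1 array, RCF 1, had 5.40 and RCF 2 had 5.67. The adipokine gene Adipoq ran from −2.65 to 3.71 over the 14 arrays. Whether fat in the dissected tissue bears on Orm1 was not tested.

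**Figure D3:**
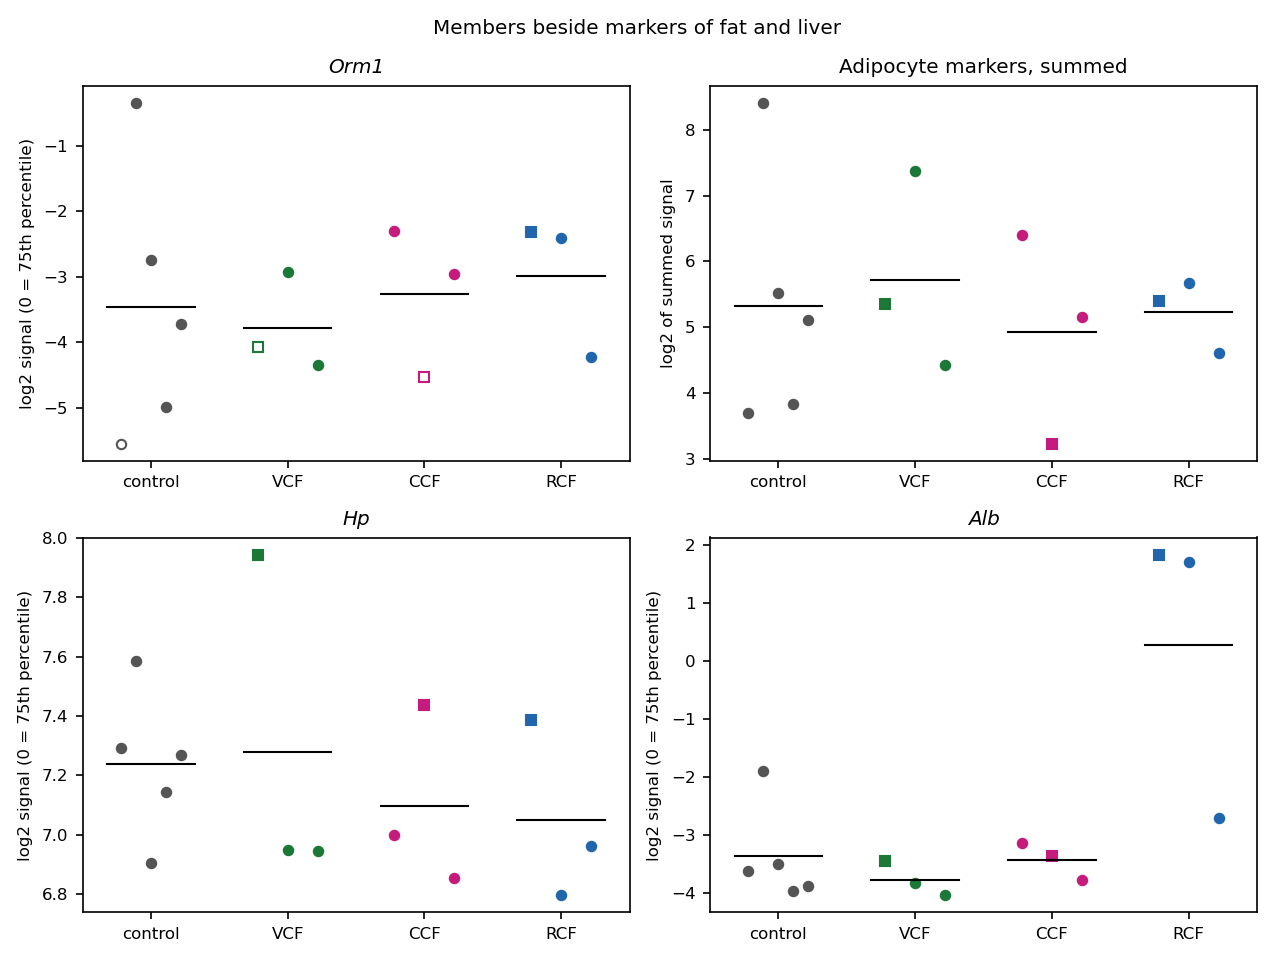
Orm1 and Hp on the left, the summed adipocyte markers and the hepatocyte marker Alb on the right, as log2 signal by group with 1 point per array, squares for dim arrays, open symbols for a probe not above background and lines for group means. Control 2 is the highest array for Orm1 (−0.34) and for the adipocyte sum (8.41), and Alb is high on RCF 1 and RCF 2.

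Lrg1 encodes leucine-rich alpha-2-glycoprotein, a partner of transforming growth factor beta signalling in vessels that neutrophils also carry. Lrg1 was at 3.39, 3.22, 3.34, 3.21 and 3.07 in control 1 to 5 and at 3.60, 4.36 and 3.91 in VCF. It was at 3.48, 3.12 and 4.38 in CCF and at 3.74, 3.54 and 2.81 in RCF. All 3 VCF arrays lay above all 5 controls, a separation that 7.38% of all genes showed in VCF against control, while CCF and RCF overlapped control. The Lrg1 difference in VCF was 0.71 ± 0.29, with an unadjusted p under 0.05, but it did not pass over all genes (adjusted p = 0.429), and it was 0.68 on slide 1 and 0.58 on slide 2. In CCF it was 0.42 ± 0.29 (adjusted p = 0.421), −0.00 on slide 1 and 1.04 on slide 2. The order of Lrg1 means was VCF 3.96, CCF 3.66, RCF 3.36 and control 3.24, and no neighbours in it differed beyond their spread.

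Chi3l1 is a chitinase-like protein without enzyme activity, made by macrophages, neutrophils and epithelium. Chi3l1 was at 5.06, 4.68, 4.56, 4.89 and 4.71 in control 1 to 5. The VCF arrays read 4.24, 4.57 and 4.46, the CCF arrays 4.82, 4.79 and 5.14 and the RCF arrays 4.91, 4.92 and 4.72. VCF held the lowest array, and its highest value was just above the lowest control. The Chi3l1 difference in VCF was −0.36 ± 0.15 (adjusted p = 0.442), with −0.46 on slide 1 and −0.10 on slide 2. The other fibres were near control, at 0.14 ± 0.15 in CCF (adjusted p = 0.633) and 0.07 ± 0.15 in RCF (adjusted p = 0.912). The order of means was CCF 4.92, RCF 4.85, control 4.78 and VCF 4.42.

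Pigr encodes the receptor that carries polymeric immunoglobulin A across the epithelium. Pigr was at 7.02, 7.62, 6.53, 7.52 and 7.78 in control 1 to 5. The VCF arrays read 8.27, 6.45 and 6.42, the CCF arrays 6.21, 6.70 and 5.77 and the RCF arrays 6.64, 7.09 and 7.39. CCF was the lowest group, though CCF 2 lay above control 3. The order of means was control 7.29, VCF 7.05, RCF 7.04 and CCF 6.23. The Pigr difference in CCF was −1.07 ± 0.44, with an unadjusted p under 0.05, which did not pass over all genes (adjusted p = 0.162), and it was −0.86 on slide 1 and −0.76 on slide 2. In VCF and RCF it was −0.25 ± 0.44 and −0.25 ± 0.44 (adjusted p = 0.933 and 0.886). A second Pigr probe was above background on 2 of 14 arrays only, so that the level rests on 1 probe.

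That Pigr probe had many close companions. At a Pearson r of 0.95 or more over the 14 arrays it matched 39 of 37826 other probes, against 9 for Hp, 5 for Saa1, 1 for Orm1 and 0 for each of the other 6 genes. The 5 genes most like Pigr, among 15852 with a symbol, were Rhox8 and Gab3 (r = 0.98 each) and Dcc, Rack1 and Gcm1 (r = 0.97 each). Rhox8 is a homeobox gene of the gonads and Dcc a netrin receptor of neurons, and their mean level over all arrays was 6.93 and 7.16. Rhox8 stood at 7.22 in control, 6.95 in VCF, 6.36 in CCF and 7.0 in RCF, highest in control and lowest in CCF as Pigr was. What these probes share beyond their arrays was not tested. For Saa3 the most similar gene was Ccl20, an epithelial chemokine (r = 0.86), which was above background on only 2 of 5 control, 2 of 3 VCF, 2 of 3 CCF and 1 of 3 RCF arrays, followed by Abitram (0.86), Cdk5, Dnmt3a and Josd1. For Lcn2 it was Mtg2 (0.88), followed by Mrrf, Ankrd36, Scrt1 and Aox1. The 14 arrays of such a correlation share groups and slides.

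Among the fibres themselves, no difference in the 10 genes passed the threshold. In CCF against VCF 0 of 10 genes passed in limma (0.222% of all genes did) and 2 had an unadjusted p under 0.05 (13.8% of all genes). Lbp was 0.69 ± 0.19 higher in CCF (adjusted p = 0.145) and Chi3l1 0.49 ± 0.16 higher (adjusted p = 0.209), and for both the groups did not overlap, as for 19% of all genes. In RCF against VCF 0 passed (0.00981% of all genes) and 1 had an unadjusted p under 0.05 (9.05% of all genes). Chi3l1 was 0.43 ± 0.16 higher in RCF (adjusted p = 0.47), without overlap, as for 15.5% of all genes. On slide 1 alone the Chi3l1 difference was 0.51 (1 array against 2). In RCF against CCF 0 passed (0.00327% of all genes) and 2 had an unadjusted p under 0.05 (9.26% of all genes). These were Lbp, 0.59 ± 0.19 lower in RCF (adjusted p = 0.467) and without overlap (16% of all genes), and Saa3. On slide 1 alone RCF against CCF was −0.29 for Lbp and −0.60 for Saa3 (1 array against 2). The rise of Lbp in CCF is therefore not shown to differ from the other fibres, although with slide as a random block Lbp in CCF against VCF passed (adjusted p = 0.048).

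**Figure D4:**
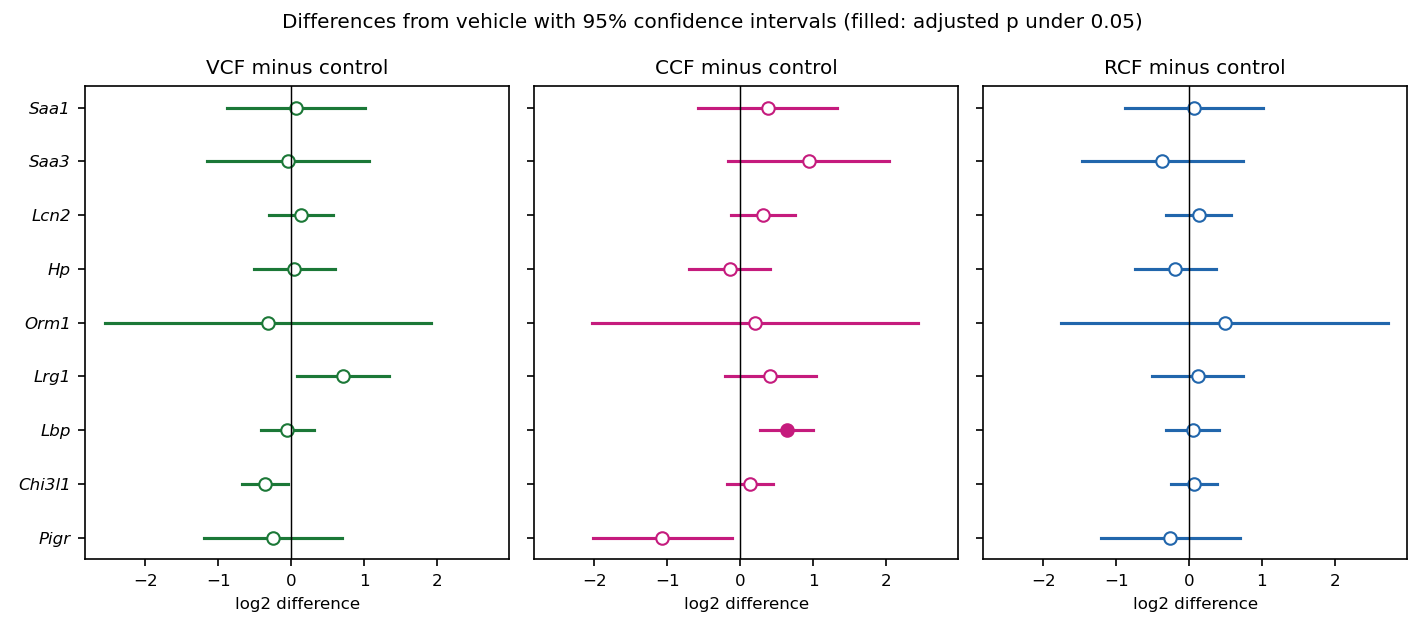
Log2 difference of each fibre from control for 9 acute phase genes (Saa2, mostly below background, is left out), with 95% confidence intervals from limma. The filled point, Lbp in CCF at 0.64, is the only one with an adjusted p under 0.05, and the Orm1 intervals are the widest.

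The remaining acute phase proteins gave 0 calls. Of 24 listed, 19 were measured, and 0 passed in limma in any of the 6 comparisons, with 1, 3 and 3 at an unadjusted p under 0.05 in VCF, CCF and RCF against control, where 9.96%, 23.7% and 12.9% of all genes were. Their medians against control were 0.07, 0.27 and 0.15. Among the fibres, 6 of the 19 had an unadjusted p under 0.05 in CCF against VCF (13.8% of all genes). In RCF against VCF 5 had one (9.05% of all genes), and in RCF against CCF 2 had one (9.26%). The 2 genes of the list with the smallest p were Fgg, the fibrinogen gamma chain, at 2.11 ± 0.54 (adjusted p = 0.137), and Hpx, the haem carrier hemopexin, at 0.98 ± 0.30 (adjusted p = 0.189), both in RCF against control. Fgg was at −1.04 and −1.18 on RCF 1 and RCF 2 and at −3.65 on RCF 3, against −4.38 to −3.82 in control. The liver gene Alb had the same pattern, at 1.83, 1.70 and −2.71 in RCF 1 to 3 and −3.96 to −1.89 in control. Of 7 hepatocyte markers measured, 0 passed in RCF (0.154% of all genes) and 5 had an unadjusted p under 0.05 (12.9% of all genes). All 7 lay above 0 there, at a median of 1.81. The part of liver RNA in the Fgg and Hpx values was not tested.

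Among the genes upstream, 30 of 30 inducers, receptors and transcription factors were measured, and 0 passed in VCF or RCF against control. In CCF 1 rose and 1 fell, 2 of 30 where 5.99% of all genes passed, a share near the background and no result about the list. Nfkbiz, the inducible nuclear cofactor of NF-κB that is needed for Lcn2 induction, rose by 1.03 ± 0.18 (adjusted p = 0.0134). It was at −0.35, −0.32 and 0.16 in CCF and −1.45 to −1.0 in control, without overlap, as for 16.3% of all genes. The Nfkbiz difference from control was 0.70 ± 0.18 in VCF (adjusted p = 0.181) and 0.52 ± 0.18 in RCF (adjusted p = 0.229) in limma. Neither group overlapped control, as for 7.38% of all genes in VCF and 11.4% in RCF. Between CCF and VCF it was 0.33 ± 0.20 (adjusted p = 0.499), and these groups overlapped. Nfkbia, the inhibitor of NF-κB that is itself an NF-κB target, fell by 0.87 ± 0.18 (adjusted p = 0.0222), to 4.62, 4.68 and 4.48 in CCF from 5.26 to 5.74 in control. Nfkbiz passed in all 14 fits that left out 1 array, while Nfkbia missed the threshold without CCF 1, CCF 2 or CCF 3 (adjusted p at most 0.0734). Interleukin 6 (Il6) and tumour necrosis factor (Tnf) differed from control by −0.39 ± 0.61 and 0.07 ± 0.56 in CCF (adjusted p = 0.774 and 0.961). Il6 was close to background, and its probe was above it on 4 of 5 control, 1 of 3 VCF, 1 of 3 CCF and 2 of 3 RCF arrays. Interleukin 1 beta (Il1b) was at 1.47 ± 0.48 in VCF (adjusted p = 0.313) and −0.89 ± 0.48 in CCF (adjusted p = 0.295).

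Of 17 receptors and partners of the 10 genes, all measured, 0 passed in VCF or RCF against control and 1 fell in CCF, again near the 5.99% of all genes that passed there. It was Tmem219, a receptor subunit for Chi3l1, which fell by 0.38 ± 0.09 (adjusted p = 0.0373). Tmem219 was at 2.59, 2.73 and 2.79 in CCF and 3.04 to 3.14 in control, and it missed the threshold without control 1, 4 or 5, VCF 2, any 1 CCF array, RCF 2 or RCF 3 (adjusted p at most 0.13). It was at −0.23 ± 0.09 in VCF (adjusted p = 0.44) and −0.32 ± 0.09 in RCF (adjusted p = 0.181). Neither group overlapped control, as for 7.38% of all genes in VCF and 11.4% in RCF.

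Markers of the cells of airway and alveolus give the setting of these values. Of 10 alveolar type 2 and 10 club and secretory cell markers, 0 passed in any comparison with control, at medians of −0.11 and 0.12 in CCF, where Lbp rose and Pigr was lowest. All 11 alveolar macrophage markers lay above 0 in CCF and in RCF, at medians of 0.28 and 0.38. In CCF 1 was called higher, as 3.78% of all genes were. In RCF 0 were called (0.154% of all genes) and 6 had an unadjusted p under 0.05 (12.9% of all genes). In VCF 6 of the 11 lay above 0 and 5 below, at a median of 0.01. The summed level of the 11 was 7.15 to 7.98 in VCF, 7.17 to 7.48 in CCF, 7.19 to 7.36 in RCF and 6.95 to 7.21 in control on the log2 scale. Of 8 ciliated cell markers measured, 7 lay above 0 in VCF and 7 in CCF, at medians of 0.44 and 0.31. In VCF 0 were called (0.085% of all genes) and 5 had an unadjusted p under 0.05 (9.96% of all genes). In CCF 1 was called higher (3.78% of all genes). The summed level of the 8 did not rise with these medians. It was 6.47 to 6.61 in VCF, 6.25 to 6.62 in CCF, 6.43 to 6.55 in RCF and 6.57 to 6.69 in control on the log2 scale. The 9 plasma and B cell markers, the source of the immunoglobulin A that Pigr carries, had medians of −0.62 in VCF, −0.42 in CCF and −0.62 in RCF. In CCF 1 was called lower (2.21% of all genes), and 0 were called in VCF (0.085% of all genes) or RCF (0.154%).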

How the data were processed

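RNA of 14 lungs was measured on 14 Cy3 arrays. Per the file headers, Feature Extraction 10.7.3.1 wrote the deposited array files, whose processed, median and background signals are intensity values, not scaled between arrays. The authors' deposited values are a log2 table, in which a column is the processed signal's log2 minus a constant of the array of unstated origin, not centred per gene, with blanks below background. Column medians in replicate order were −0.05, −0.03, −0.29, −0.50 and −0.49 (control), 0.30, −0.30 and −0.37 (VCF), −0.36, 0.16 and −0.34 (CCF), −0.17, −0.52 and −0.49 (RCF).

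Each spot was taken as log2 of its processed signal minus the array's 75th percentile, without control spots and outlying spots. Probes above background on at least 3 arrays were kept (37984 of 56605), 32994 probes had a symbol through their RefSeq accession and 23611 had none, and of several probes of a gene the brightest was used. Limma 3.58.1 in R 4.3.3 (data.table, version 1.17.8, for reading) was fitted to all genes and all arrays with 4 groups and no covariate, and the tests are two-sided over 6 comparisons. Standard deviations and limma's standard errors rest on 3 or 5 arrays a group, and that number limits the precision. The scripts were tested on simulated data.

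Named genes were the 10 acute phase genes, genes past the threshold from 3 pathway lists (otherwise the 2 with the smallest p), and for Saa3, Lcn2 and Pigr the 5 genes with the highest correlation. Il6, Tnf, Il1b, Adipoq, Alb, S100a8 and S100a9 were named after their values were seen, as known members of their lists. Marker lists covered neutrophils, alveolar macrophages, alveolar type 2, secretory, ciliated, endothelial, B and plasma, liver, fat and erythroid cells. The genes and lists were chosen with earlier results of these data known. The 24 alternatives changed the normalization, background correction, probe filter, probe choice, slide or replicate block, or left out arrays. For normexp the median signal stood in for the mean signal, which was not used here. Promoter windows were matched to 7 of the 10 genes by symbol. Probe sequences, protein sequences and the other promoters were not used here.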

Additional observations from a re-analysis of the deposited data

Results flagged for a closer look

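Alb, the albumin gene of liver, had 1 control array far from the other 4. Control 2 stood at −1.89, against −3.96 to −3.50 on the others, and its gap to the nearest was 0.776 of the whole range. Chance gives a gap of 0.71 or more in about 1 in 20 groups. The controls of all acute phase genes and of the other genes followed were screened in this way, and only Alb passed 0.71. With that many genes screened, chance alone can give such a flag, and no finding is drawn from it. Control 2 was also the highest control for Orm1, at −0.34.

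S100a8 and S100a9, the neutrophil calprotectin genes, lay below control in CCF and above it in VCF, and the difference between these fibres passed limma's test. S100a8 differed by −2.86 ± 0.40 in CCF against VCF (adjusted p = 0.017), with 1.01 ± 0.36 above control in VCF (adjusted p = 0.344) and −1.85 ± 0.36 in CCF (adjusted p = 0.0174). For S100a9 the difference was −2.49 ± 0.33 (adjusted p = 0.0125). The S100a8 call was lost without VCF 2, VCF 3, CCF 2 or CCF 3 (adjusted p at most 0.0809), and that of S100a9 without VCF 1 or CCF 2 (at most 0.0567). The acute phase genes Lcn2 and Lrg1, which neutrophils also carry, differed between the same groups by 0.18 ± 0.22 (adjusted p = 0.814) and −0.30 ± 0.32 (adjusted p = 0.767).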

How the results depend on the processing

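The call on Lbp in CCF, 1 of 10 acute phase genes, was lost (0 called) with normexp background, the mean of the probes of a gene, the replicate block and without the 3 dim arrays, and leaving out 1 array gave 0 to 1. With slide as a random block 1 gene, Lbp, was called in CCF against VCF. In the other comparisons 0 acute phase genes were called under each alternative.

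Counts over all genes moved more, in the order VCF, CCF and RCF against control, CCF against VCF, RCF against VCF and RCF against CCF. As reported they were 26, 1832, 47, 68, 3 and 1. They were 2, 1450, 6, 77, 0 and 0 with quantile normalization, 0, 409, 0, 13, 0 and 0 with normexp background, and 29, 2332, 38, 89, 3 and 0 with the authors' deposited values. With probes above background on all 14 arrays they were 97, 2700, 195, 191, 11 and 0, and with the mean of the probes 30, 1387, 24, 55, 3 and 0. Slide as a fixed block gave 35, 1869, 457, 563, 7 and 0, and as a random block 95, 2953, 468, 656, 2 and 0. Without the 3 dim arrays they were 1, 418, 1, 0, 0 and 0. Leaving out 1 array gave 0 to 28, 258 to 2717, 0 to 55, 21 to 142, 0 to 26 and 0 to 25. Leaving out spots with an outlying background, chosen after seeing the data, gave 20, 1739, 46, 63, 3 and 1. The cause of these moves was not tested, beyond the smaller number of arrays or probes.

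Replicate numbers are shared between groups, and arrays of the same number correlated over 0.1 in 12 of 18 pairs (median r 0.181), against 11 of 54 pairs of other numbers (median r −0.0338). Not every same-number pair passed 0.1, the condition set for pairing, and 12 of the 18 share a slide, so that the block stayed an alternative. On a shared slide, 9 of 12 same-number pairs (median r 0.181) and 8 of 13 pairs of other numbers (median r 0.222) correlated over 0.1. The replicate block, which also left out control 4 and control 5, gave 0, 2, 0, 0, 0 and 1 genes, and Lbp at 0.69 (adjusted p = 0.164). The effect of leaving out these arrays was not tested apart from that of the block.

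Of the 10 alternatives other than the 14 that left out 1 array, 8 kept the call on Nfkbiz in CCF against control. The call on Nfkbia was kept by 6 of these 10, that on Tmem219 by 5 and those on S100a8 and S100a9 by 8. None of these genes, nor Lbp, changed direction in that comparison under any of the 24 alternatives. Genes past the threshold that are not named here were not followed. Of 60 differences of acute phase genes, 28 kept their sign throughout. On the dim arrays the 75th percentile was 4.78 to 6.25 times the negative control signal, against 14.6 to 59.6 on the others. The dim array was the highest of all 3 fibre groups for Saa1 and Hp, and the lowest of all 3 for the Lcn2 probe used. It was also at an end of all 3 groups for Lbp and Lrg1 (highest in 1, lowest in 2) and for Pigr (highest in 2, lowest in 1).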
